A study of Mus musculus with 6 samples.

Results

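The collagens of mouse tibialis anterior muscle, 7 days into the repair of a toxin injury, are described here in 2 groups of 3 RNA sequencing libraries. The family was taken as every gene of the deposited expression table whose mouse symbol has the form of a numbered collagen chain, Col, a type number, the letter a and a chain number. The rule found 44 genes among the 52369 of the table, of which 51633 had a symbol. Of the 44, 34 had a mean of at least 1 FPKM over the 6 libraries and entered the test with 14788 genes in all. FPKM is the number of fragments per kilobase of gene, scaled to the depth of the library, so levels of different genes can be set side by side on it. By class the family held 11 fibrillar chains, 6 chains of basement membrane type IV, 6 of microfibril type VI, 9 FACIT chains (fibril-associated collagens with interrupted helices), 3 short-chain network genes, 2 multiplexins, 4 transmembrane collagens, the anchoring fibril gene Col7a1 with Col28a1, and Col26a1.

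All 6 libraries came from the tibialis anterior, a muscle of the lower leg, of C57BL/6 mice. At 5 weeks of age 50 µl of 10 µM cardiotoxin (CTX), a snake venom toxin that breaks down muscle fibres, was injected into the muscle. In both groups 6.25 µg of the expression plasmid pcDNA3.1 was afterwards injected into the same muscle with the reagent Entranster-in vivo on several days, days 2 and 4 among them, and the muscle was harvested on day 7, at 6 weeks of age. The group L7 had gain of function of Linc-smad7, a long non-coding RNA that the study's title ties to myoblast differentiation, and the group Control did not. The labels do not say what the Control plasmid carried, which cells took up plasmid, or that each library was a separate animal, so p-values measure the spread between these samples only. The level of Linc-smad7 itself was not analysed here.

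Collagens are the main structural proteins of the extracellular matrix. Each chain carries stretches in which glycine opens every Gly-X-Y triplet, and chains wind around each other into a rope-like helix that is secreted and, for the fibrillar types, trimmed, assembled into fibrils and cross-linked. In injured muscle, fibroblasts and fibro-adipogenic progenitors lay down a transient matrix rich in types I, III and VI, while type IV forms the sheet around each fibre and capillary. In bulk tissue, a lower level of a transcript can come from fewer cells that make it or from less RNA in each of them, and these cannot be told apart here.

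Each library held between 19420012 and 24663153 reads in genes. The library that stood apart was L7 replicate 3, with 72.2 on the first principal component against -29.0 to -3.83, a component with 67.1% of the variance. Its factor in median of ratios scaling was 0.773, against 1.03 to 1.10 elsewhere. On that scaling the median over all genes of the log2 difference was -0.00154 instead of -0.153, so the directions below are also given on it and without L7 replicate 3. The 10 adult muscle fibre genes, such as Acta1 and Myh4, summed to 20600, 29100 and 27400 FPKM in Control and to 31600, 34200 and 93700 in L7, and none was near 0 in any library.

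Collagen transcripts made up a large share of the RNA in every library. The 44 genes together took 2.73%, 3.61% and 2.39% of all FPKM in the Control libraries and 2.65%, 3.33% and 2.04% in the L7 libraries. The groups overlapped, at 2.91% ± 0.633 (SD, n = 3) in Control and 2.67% ± 0.646 (SD, n = 3) in L7, and without L7 replicate 3 the L7 mean was 2.99%. As a share of reads the family held 3.44% to 5.25% in Control and 3.11% to 4.78% in L7. Of the members, 11 had a mean of at least 100 FPKM, 13 lay between 10 and 100, 10 between 1 and 10, and 10 below 1. Col1a1, Col3a1 and Col1a2 ranked 3, 8 and 11 among all genes by mean FPKM, and they alone made up 84.5% ± 1.64 (SD, n = 3) of collagen FPKM in Control and 84.6% ± 0.656 (SD, n = 3) in L7.

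**Figure D1:**
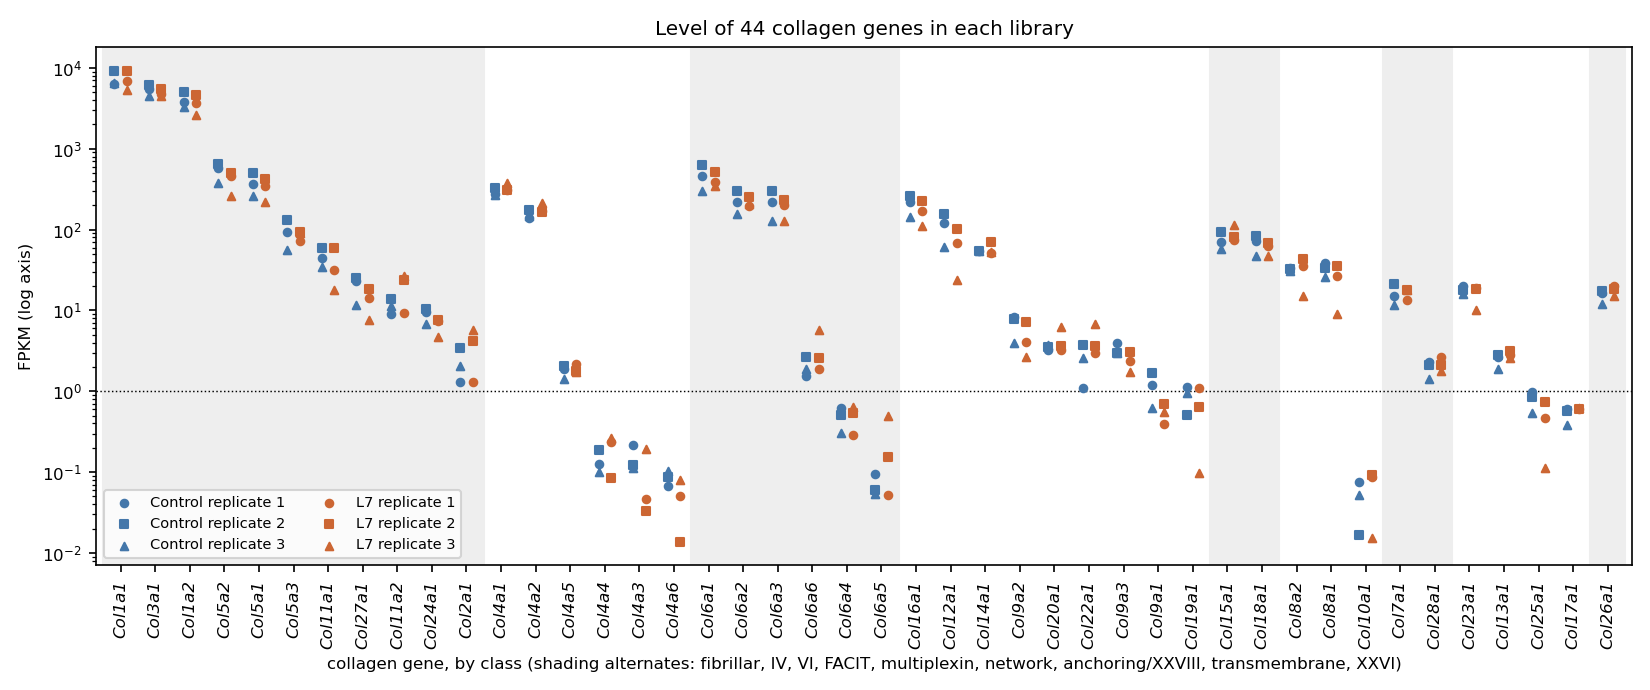
FPKM of each of the 44 collagen genes on a log axis, with 1 point per library (blue Control, orange L7, symbol by replicate) and genes ordered by class and mean level. The dotted line marks 1 FPKM, below whose mean 10 genes lay, and Col1a1, Col3a1 and Col1a2 stand above all others.

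The repeat that defines the family differed between its classes in the annotated coding sequences (GENCODE M21, longest coding sequence of each gene). In 9 of the 11 fibrillar genes the longest unbroken run of Gly-X-Y triplets was 337 to 344 triplets. Col24a1 had 216 and Col27a1 217 in theirs, but 327 and 329 triplets over 3 runs of at least 5 each. In the 6 type IV genes the longest run was 39 to 66 triplets, and the triplets fell into 22 to 27 runs of at least 5, the interruptions that make the type IV helix flexible. Type VI chains of 1025 to 3284 codons held only 104 to 111 triplets in such runs, a short helix between large globular domains.

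Fibrillar collagens, which give muscle connective tissue its tensile strength, accounted for nearly all collagen RNA. The 11 genes took 89.9% ± 0.893 (SD, n = 3) of collagen FPKM in Control and 89.5% ± 1.07 (SD, n = 3) in L7. Col1a1 (ENSMUSG00000001506, chr11:94936224-94953042 on the plus strand, mm10) encodes the alpha 1 chain of type I, the main collagen of scar and tendon. Its level was 6380, 9280 and 6460 FPKM in Control and 6970, 9130 and 5350 FPKM in L7. Control replicate 2 and L7 replicate 2 were the high libraries, L7 replicate 3 was the lowest, and the groups overlapped. On log2(FPKM + 1), the scale of every log2 difference given here, L7 minus Control was -0.057 ± 0.35 (SE), with an adjusted p of 0.936 in limma, a linear model fitted to all genes together. The sign was not stable, at 0.12 with median of ratios scaling and 0.14 without L7 replicate 3.

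Col3a1 (ENSMUSG00000026043, chr1:45311538-45349706, plus strand) encodes the chain of type III, which forms thin fibrils together with type I early in repair. It stood at 5490, 6160 and 4460 FPKM in Control and 4710, 5480 and 4440 FPKM in L7. The Control libraries spread more widely than the group means stood apart, and the groups overlapped. The log2 difference was -0.13 ± 0.29 (SE), adjusted p = 0.815, and it was 0.045 with median of ratios scaling. Col1a2, the partner chain of type I, was at 3740, 4990 and 3260 FPKM in Control and 3650, 4580 and 2600 FPKM in L7, with the same highest and lowest library as Col1a1. Its log2 difference was -0.16 ± 0.33 (SE), adjusted p = 0.799, and turned to 0.016 with median of ratios scaling.

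Promoter windows of 300 bases, from 250 before to 50 after the start site, were found for 35 of the 44 genes, in 38 windows, in RefSeq (GRCm38.p6, the build called mm10). The windows of Col1a2 and Col3a1 are printed because these genes are 2 of the 3 collagens of highest level and both windows hold the Smad motif CAGACA, letters bound by effectors of TGF-beta signalling. In all, 4 short motifs were searched on both strands and stand in capitals, also where they read as the reverse complement. They were the TATA box TATAAA, the CCAAT box CCAAT, the GC box GGGCGG and the Smad motif CAGACA. None overlapped another in the windows printed here. The Col1a2 window, chr6:4505368-4505667 on the plus strand, was 61.0% GC and starts downstream of the first base of the GENCODE gene at 4504814. The Col3a1 window, chr1:45311288-45311587 on the plus strand, was 37.7% GC, the lowest of the collagen windows, which reached 75.0%.
Col1a2: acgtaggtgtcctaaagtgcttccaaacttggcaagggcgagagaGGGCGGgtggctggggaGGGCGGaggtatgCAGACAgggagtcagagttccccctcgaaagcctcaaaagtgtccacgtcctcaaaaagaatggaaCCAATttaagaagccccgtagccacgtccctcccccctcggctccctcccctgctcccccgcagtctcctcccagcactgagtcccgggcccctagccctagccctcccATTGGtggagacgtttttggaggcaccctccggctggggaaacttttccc
Col3a1: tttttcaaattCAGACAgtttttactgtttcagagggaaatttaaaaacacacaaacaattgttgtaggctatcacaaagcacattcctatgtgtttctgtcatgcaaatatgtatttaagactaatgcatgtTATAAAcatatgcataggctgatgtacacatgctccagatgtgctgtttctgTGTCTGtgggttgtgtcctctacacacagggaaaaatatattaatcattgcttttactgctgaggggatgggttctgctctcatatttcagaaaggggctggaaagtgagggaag
The Col1a2 window held 2 GC boxes, the nearer beginning 188 bases before the start site, CCAAT beginning 109 bases before it and again, in reverse, at the start site, and CAGACA beginning 175 bases before it. The Col3a1 window held CAGACA on each strand and TATAAA beginning 117 bases before the start site, and no GC box. Over the family CAGACA was in 23.7% of the collagen windows against 21% of all 32851 promoter windows. TATAAA was in 13.2% against 13.6%, and CCAAT in 34.2% against 37.4%. The GC box was in 60.5% of the collagen windows, those of 22 genes, against 35.7% of all. These matches describe letters, not binding.

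The other fibrillar chains were far below types I and III. Type V chains, which start the fibril and set its width, had means of 471 (Col5a2), 354 (Col5a1) and 90.2 FPKM (Col5a3). Their log2 differences were -0.39, -0.18 and -0.074. Col5a2 was lowest in L7 replicate 3 (264 FPKM) and next lowest in Control replicate 3 (372 FPKM), and its groups overlapped. Col11a1, the type XI chain that joins type V in fibrils, had a mean of 41.3 FPKM with a log2 difference of -0.45 ± 0.41 (SE). Its partner Col11a2, best known from cartilage, was at 9.07, 13.7 and 11.2 FPKM in Control and 9.19, 24 and 26.5 FPKM in L7. Both L7 replicates 2 and 3 lay above every Control library, while L7 replicate 1 lay within them. The log2 difference of Col11a2 was 0.65 ± 0.38 (SE), adjusted p = 0.580, and 0.39 without L7 replicate 3.

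Col2a1, the main cartilage collagen, was low, at 1.29, 3.47 and 2.08 FPKM in Control and 1.3, 4.22 and 5.75 FPKM in L7. The 9 cartilage markers summed to 41.3, 61.2 and 54.8 FPKM in Control and 65.6, 96.6 and 48.2 FPKM in L7, mostly from Comp, which tendon also expresses. Sox9 was at 6.11 to 7.11 FPKM in Control and 2.23 to 8.01 FPKM in L7, and Acan at 1.79 to 4.55 and 0.920 to 2.72 FPKM. Matn3 and Cnmd were at 0.251 to 0.784 FPKM, and Matn1, Hapln1, Snorc and Epyc at no more than 0.182 FPKM in any library, and the part of cartilage in these values was not tested. Col27a1 and Col24a1, the fibrillar chains with the shorter unbroken run of triplets, had means of 16.7 and 7.79 FPKM. Their log2 differences were -0.56 and -0.39, with overlapping groups. Over the class, 9 of 11 log2 differences were negative, where 70.8% of all genes tested were. The class median was -0.162, close to the -0.153 of all genes. The median of the class was 0.0156 with median of ratios scaling (-0.00154 over all genes) and -0.0398 without L7 replicate 3 (-0.0319 over all genes).

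Type IV collagen was carried by Col4a1 and Col4a2, whose chains assemble in 1 molecule in all basement membranes. Col4a1 (ENSMUSG00000031502, chr8:11198423-11312826, minus strand) stood at 275, 330 and 271 FPKM in Control and 308, 309 and 380 FPKM in L7. L7 replicate 3 was the highest of the 6, and the groups overlapped through Control replicate 2. The log2 difference was 0.19 ± 0.17 (SE), adjusted p = 0.615, and 0.086 without L7 replicate 3. Col4a2 (ENSMUSG00000031503, chr8:11312805-11449287, plus strand) followed it, at 140, 176 and 146 FPKM in Control and 170, 166 and 213 FPKM in L7. Here L7 minus Control was 0.25 ± 0.17 (SE), adjusted p = 0.580, and 0.13 without L7 replicate 3. Both signs held with median of ratios scaling (0.36 and 0.42). The class took 2.23%, 2.08% and 2.55% of collagen FPKM in Control and 2.66%, 2.12% and 4.04% in L7.

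The Col4a1 and Col4a2 windows are printed because the pair is known for its shared, bidirectional promoter. The genes lie head to head, their annotated 5′ ends overlap by 22 bases, and the upstream part of each window lies inside the other gene. The Col4a1 window is chr8:11312777-11313076 on the minus strand (74.0% GC) and the Col4a2 window chr8:11312555-11312854 on the plus strand (73.7% GC), with motifs in capitals as above.
Col4a1: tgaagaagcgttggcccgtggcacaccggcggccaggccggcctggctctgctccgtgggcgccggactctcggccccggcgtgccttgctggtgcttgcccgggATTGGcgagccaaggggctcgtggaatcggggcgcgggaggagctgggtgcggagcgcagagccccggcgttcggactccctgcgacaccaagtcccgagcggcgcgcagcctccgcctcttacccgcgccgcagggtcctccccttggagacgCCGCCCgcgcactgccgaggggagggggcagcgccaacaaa
Col4a2: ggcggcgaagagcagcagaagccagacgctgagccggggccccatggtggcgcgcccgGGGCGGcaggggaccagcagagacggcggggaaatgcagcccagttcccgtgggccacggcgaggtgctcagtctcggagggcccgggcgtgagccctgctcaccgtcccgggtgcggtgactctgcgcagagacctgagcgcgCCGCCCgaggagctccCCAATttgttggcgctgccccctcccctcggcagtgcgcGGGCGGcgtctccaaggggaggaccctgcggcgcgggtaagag
Neither held TATAAA or CAGACA, and both held CCAAT and the GC box. The windows overlap, and the only GC box of the Col4a1 window is the same site as the last of the Col4a2 window. Since no source used here gives the strand setting of the counting, reads over the 22 shared bases could have been counted for either gene.

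The other type IV genes were low, and both of these chain pairs are also head to head. Col4a5 (chrX:141475385-141689234) was at 1.86, 2.04 and 1.42 FPKM in Control and 2.15, 1.76 and 1.75 FPKM in L7, with overlapping groups and a log2 difference of 0.062. Col4a6, 1308 bases from it, had a mean of 0.0673 FPKM, with 1 to 9 reads per library. Col4a3 and Col4a4, the chains of the kidney filter and other specialised membranes, lie 71 bases apart on chromosome 1 and had means of 0.121 and 0.167 FPKM. So where Col4a1 and Col4a2 kept a ratio of 1.78 to 1.97 in all 6 libraries, Col4a5 and Col4a6 differed between 13.7 and 129 fold, the larger values resting on the few reads of Col4a6.

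Type VI collagen forms beaded filaments next to the muscle fibre, and loss of it causes muscular dystrophy. Col6a1 (ENSMUSG00000001119, chr10:76708792-76726168, minus strand) was at 464, 632 and 300 FPKM in Control and 384, 509 and 350 FPKM in L7. Control replicate 2 was the highest and Control replicate 3 the lowest of all 6, so that the Control group enclosed the L7 group. The log2 difference was -0.12 ± 0.30 (SE), adjusted p = 0.838, but 0.056 on median of ratios scaling. Col6a2 was at 218, 304 and 158 FPKM in Control and 195, 256 and 209 FPKM in L7, again with the L7 libraries inside the Control range. For Col6a2 the log2 difference was -0.00037 ± 0.26 (SE), adjusted p = 0.999. Col6a3, the long chain of the filament, had a mean of 216 ± 88.0 FPKM in Control and of 187 ± 53.2 FPKM in L7 (SD, n = 3 each).

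The alternative long chains of type VI were rare. Col6a6 was at 1.56, 2.64 and 1.90 FPKM in Control and 1.89, 2.56 and 5.79 FPKM in L7, with L7 replicate 3 alone above the Control range. Its log2 difference of 0.46 was 0.098 without that library. Col6a4 and Col6a5, its neighbours on chromosome 9, had means of 0.482 and 0.152 FPKM. The class took 4.49% of collagen FPKM in Control (SD 0.81, n = 3) and 4.49% in L7 (SD 0.192, n = 3).

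FACIT collagens sit on the surface of fibrils and link them to other matrix. Col16a1 (ENSMUSG00000040690) was the highest, at 219, 262 and 144 FPKM in Control and 172, 227 and 111 FPKM in L7. Both replicates numbered 3 were the low libraries of their group, and the groups overlapped. The difference was -0.31 ± 0.32 (SE), adjusted p = 0.638, and -0.035 without L7 replicate 3. Col12a1 (ENSMUSG00000032332, chr9:79598991-79718831, minus strand), a chain of tendon and muscle fascia that responds to tension, was at 121, 154 and 61.5 FPKM in Control and 67.9, 103 and 24 FPKM in L7. This is a spread of 2.51 fold within Control alone, and L7 replicate 3 was at 0.282 of the mean of the other L7 libraries. The log2 difference of Col12a1, -0.91 ± 0.55 (SE) with an adjusted p of 0.580, was the most negative of the family, and -0.32 without L7 replicate 3.

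Col14a1, which resembles Col12a1 in build, showed no such spread. It was at 54.9, 54.9 and 54.0 FPKM in Control and 51.6, 70.9 and 52.1 FPKM in L7. This was the tightest Control group of all tested collagens, with a highest library 1.02 times the lowest. Its log2 difference was 0.074 ± 0.16 (SE). Col22a1, a chain of the junction between muscle and tendon, was at 1.09, 3.75 and 2.58 FPKM in Control and 2.98, 3.65 and 6.84 FPKM in L7. Its log2 difference of 0.68 ± 0.36 (SE) was the most positive of the family and had the smallest unadjusted p of a tested member, 0.104 (adjusted p = 0.580). The groups overlapped, and the difference was 0.39 without L7 replicate 3. Col9a2 and Col9a3, chains of type IX on cartilage fibrils, had means of 5.67 and 2.85 FPKM, and Col20a1 of 3.95 FPKM.

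The multiplexins Col15a1 and Col18a1 lie at the outer face of basement membranes, and Col18a1 is the source of endostatin. Col15a1 was at 70.7, 94.4 and 57.7 FPKM in Control and 73.8, 80.8 and 114 FPKM in L7. L7 replicate 3 was the highest library, and the groups overlapped. Its log2 difference was 0.27 ± 0.24 (SE), adjusted p = 0.600, and 0.085 without L7 replicate 3. Col18a1 was at 72.8, 82.3 and 47.8 FPKM in Control and 62.2, 67.8 and 47.5 FPKM in L7, with L7 replicate 3 the lowest. The 2 genes, close in level in 5 libraries, thus parted in that library, with a log2 difference for Col18a1 of -0.17 ± 0.24 (SE), adjusted p = 0.718, that was 0.0047 with median of ratios scaling.

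The short-chain collagens of type VIII form hexagonal nets in the walls of vessels. Col8a2 (ENSMUSG00000056174) was at 33.4, 32.8 and 31.0 FPKM in Control and 35.5, 43.3 and 15.1 FPKM in L7, so that 2 L7 libraries lay above and 1 below the whole Control group. Its log2 difference was -0.17 ± 0.35 (SE), adjusted p = 0.801, and turned to 0.27 without L7 replicate 3, with an unadjusted p of 0.0487 and an adjusted p of 0.753. Col8a1 was at 38.9, 33.7 and 25.9 FPKM in Control and 26.7, 35.3 and 8.97 FPKM in L7. L7 replicate 3 was far below the other 5, and the log2 difference of -0.63 ± 0.45 (SE), adjusted p = 0.580, was -0.074 without it. The 9 endothelial markers, among them Pecam1, summed to 266 to 320 FPKM in Control and 282 to 319 FPKM in L7, and the 8 pericyte and smooth muscle markers to 302 to 588 and 278 to 409. Their part in the values of type VIII was not tested.

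Col7a1, the anchoring fibril chain of skin and other epithelia, was at 15.0, 21.4 and 11.8 FPKM in Control and 13.5, 18 and 18.1 FPKM in L7. Its log2 difference was 0.068 ± 0.23 (SE), adjusted p = 0.885, and it turned to -0.00051 without L7 replicate 3. Col28a1, a chain known from nerve, was at 2.30, 2.09 and 1.40 FPKM in Control and 2.69, 2.13 and 1.76 FPKM in L7, with a log2 difference of 0.12 ± 0.20 (SE). Both had overlapping groups.

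Among transmembrane collagens, Col23a1 was at 20.3, 17.8 and 15.8 FPKM in Control and 18.8, 18.3 and 10.1 FPKM in L7. Its log2 difference of -0.22 ± 0.25 (SE), adjusted p = 0.659, was 0.049 without L7 replicate 3, the lowest library. Col13a1, which helps to build the synapse between nerve and muscle, was at 2.63, 2.79 and 1.90 FPKM in Control and 2.79, 3.16 and 2.56 FPKM in L7, with overlapping groups and a log2 difference of 0.16 ± 0.17 (SE). Col17a1, the collagen of the hemidesmosome that fixes skin cells to their membrane, was the 1 gene of all 44 whose groups did not overlap. It was at 0.597, 0.575 and 0.386 FPKM in Control and 0.607, 0.602 and 0.620 FPKM in L7, from 29 to 38 reads against 38 to 41 reads. Too low for the test, it had p = 0.341 in the authors' deposited table. Among all genes tested, which leave out Col17a1 and other genes as low, every L7 value lay above every Control value in 5.49%. The 6 epidermis markers summed to 5.14 to 13.5 FPKM in Control and 6.86 to 7.36 FPKM in L7, nearly all from Krt10 and Trp63 except in Control replicate 1, where Krt14 was at 3.53 FPKM. Krt5 and Krt1 were at or near 0 in most libraries, and the part of epidermis was not tested. Col26a1 was at 16.6, 17.2 and 12.1 FPKM in Control and 20.1, 18.2 and 15.1 FPKM in L7, with a log2 difference of 0.21 ± 0.19 (SE), adjusted p = 0.602.

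The 10 members below a mean of 1 FPKM were Col9a1, Col19a1, Col25a1, Col17a1, Col6a4, Col4a4, Col6a5, Col4a3, Col4a6 and Col10a1. They ran from 0.858 FPKM in Col9a1, the remaining type IX chain, to 0.0565 FPKM in Col10a1, the marker of growth plate cartilage, which had 1 to 6 reads per library. Col4a5, at 1.83 FPKM, was the lowest member that entered the test. Col9a1 was at 1.20, 1.68 and 0.623 FPKM in Control and 0.399, 0.696 and 0.549 FPKM in L7. It had the smallest p of the family in the authors' deposited table, 0.0990, with overlapping groups.

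Across the tested family no collagen passed a threshold between the groups. In limma 0 of 34 members had an adjusted p under 0.05, as did 0.0% of all genes tested, and the smallest adjusted p was 0.580 in the family and 0.468 over all genes. Of the 34 members, 0 had an unadjusted p under 0.05, against 5.90% of all genes (1.65% higher and 4.25% lower in L7). Groups without overlap were found for 0 of the 34, whereas L7 lay above Control in 5.49% and below it in 13.7% of all genes. In the authors' deposited table, none of the members, 0 of 44, had an unadjusted p under 0.05, against 1.13% of its 31690 genes, and every adjusted p of a member was 1. Of the log2 differences, 20 were negative and 14 positive, with a median of -0.0974 beside -0.153 over all genes, of which 70.8% were negative. With median of ratios scaling 22 of 34 were positive, with a median of 0.0787 beside -0.00154, and without L7 replicate 3 19 were positive, with a median of 0.0532 beside -0.0319. Without Control replicate 2, 21 were positive, with a median of 0.122 beside -0.154.

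The intervals of the differences hold for log2(FPKM + 1) without further scaling. That scale understates the change of low genes, and the intervals leave out the choice of scaling. Col22a1, for example, had a log2 difference of 0.676, but 0.901 with a pseudocount of 0.1. The 95% interval held 0 for 34 of 34 members, and for 23 of them it lay within -1 to 1. The standard error ran from 0.162 in Col14a1 to 0.549 in Col12a1. For Col4a2 the interval was -0.155 to 0.651, and for Col1a1 -0.887 to 0.774.

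**Figure D2:**
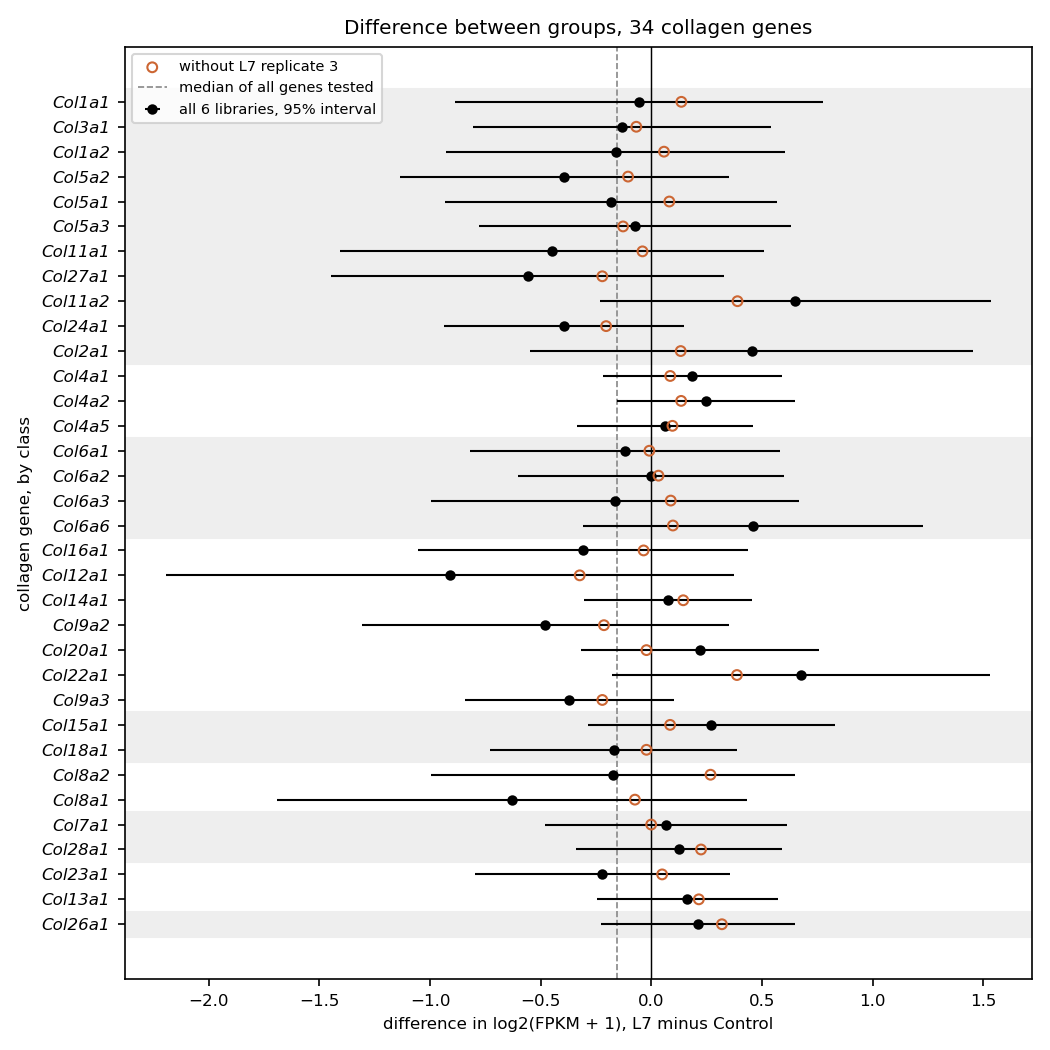
Difference in log2(FPKM + 1), L7 minus Control, for the 34 collagen genes tested, with black points and 95% intervals from limma on all 6 libraries and open circles for the value without L7 replicate 3 (horizontal axis in log2 units, genes by class). The solid line marks 0 and the dashed line the median of all genes tested. Every interval holds 0, and Col12a1, Col8a1 and Col8a2 move most towards or past 0 when L7 replicate 3 is left out.

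Some chain pairs varied less in their ratio than in their level. Col1a1 over Col1a2 was 1.71, 1.86 and 1.98 in Control and 1.91, 1.99 and 2.06 in L7, a range of 1.21 fold, while the level of Col1a2 ranged over 1.92 fold. Col6a1 over Col6a2 ranged over 1.27 fold, from 1.68 in L7 replicate 3 to 2.13, while Col6a1 itself ranged over 2.11 fold. Col4a1 over Col4a2 ranged over 1.10 fold, while Col4a2 itself ranged over 1.52 fold, with means of 1.90 ± 0.0613 (SD, n = 3) in Control and 1.82 ± 0.0367 (SD, n = 3) in L7. Here each L7 ratio lay below each Control ratio, though the nearest libraries were equal to 3 digits, at 1.86. Col8a1 over Col8a2 was 1.16, 1.03 and 0.833 in Control and 0.750, 0.817 and 0.593 in L7, again with each L7 ratio below each Control ratio.

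Of 18 such ratios examined, these 2 had groups without overlap. Each had an exact two-sided permutation p of 0.1, the smallest that 3 libraries against 3 allow, and 0.491 after Benjamini-Hochberg adjustment over the 18. The other pairs were mixed in how their ratio varied beside their level. The ratios of the rare type IV chains ranged more widely than either gene's level. Col4a5 over Col4a6 was 27.5, 23.3 and 13.7 in Control and 42.0, 129 and 21.8 in L7, from few reads of Col4a6. Col4a4 over Col4a3 was 0.590, 1.53 and 0.895 in Control and 5.11, 2.56 and 1.36 in L7, from 2 to 13 reads of Col4a3. Col5a2 over Col5a1 ranged from 1.19 to 1.58, Col5a1 over Col5a3 from 2.42 to 4.80 and Col6a1 over Col6a3 from 1.90 to 2.74. Of the type IX chains, Col9a2 over Col9a3 ranged from 1.32 to 2.60 and Col9a2 over Col9a1 from 4.66 to 10.3. The type V, VI and IX ratios just given each ranged over fewer fold than the level of either gene. Col11a1 over Col11a2 was 4.86, 4.36 and 3.08 in Control and 3.49, 2.48 and 0.685 in L7, so that only in L7 replicate 3 was Col11a2 the higher chain. Between genes of 1 class that do not share a molecule, Col15a1 over Col18a1 was 0.970 to 1.21 in 5 libraries and 2.41 in L7 replicate 3, and Col14a1 over Col12a1 was 0.356 to 0.879 in 5 libraries and 2.17 in that one.

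**Figure D3:**
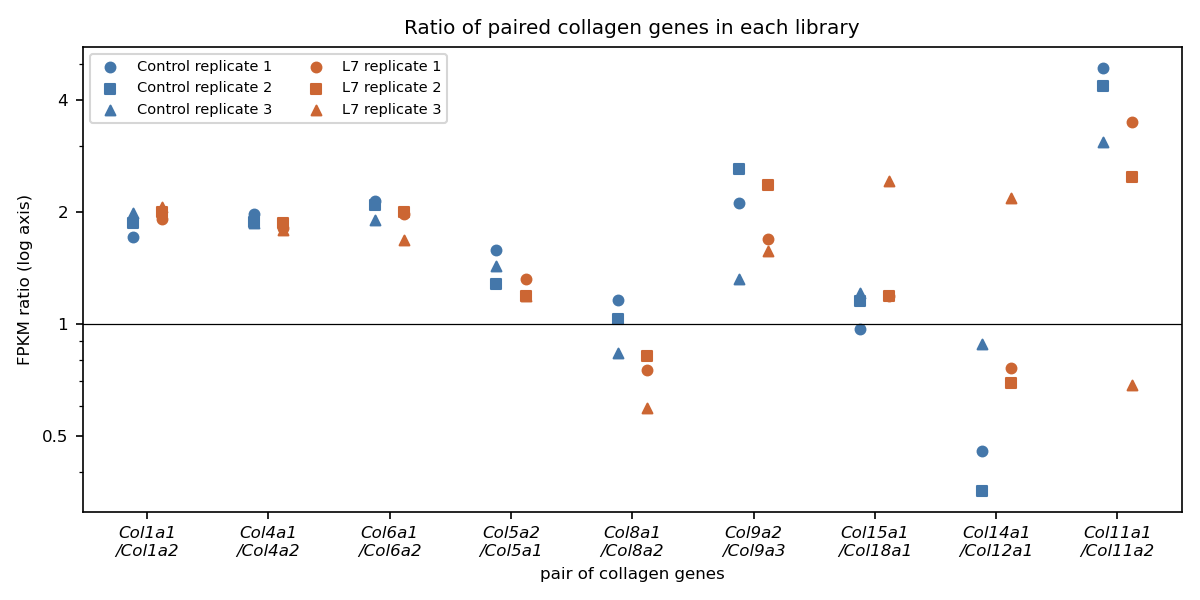
Ratio of FPKM between 9 pairs of collagen genes in each library, on a log axis, with blue points for Control, orange for L7 and symbols by replicate. The pairs at the left lie close together, Col8a1 over Col8a2 separates the groups, and L7 replicate 3 stands away in the 3 pairs at the right.

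Between Control replicates 2 and 3 most collagens differed in the same direction. These libraries had the highest and lowest collagen share of the Control group (3.61% and 2.39% of all FPKM). The pair was thus not chosen apart from the values compared. Control replicate 2 was above Control replicate 3 in 32 of 34 members, by a median of 1.51 fold, where 51.8% of all genes were higher in it and the median was 1.01. Of the Control libraries, replicate 2 was the highest for 26 members (29.5% of all genes) and replicate 3 the lowest for 26 (41.7% of all genes). The 2 members higher in replicate 3 or equal to it were Col20a1 and Col9a3. Fibroblast markers did not follow this order as a list, with a sum of 2110, 1880 and 2190 FPKM in the Control libraries, but Ly6a made up 1040, 783 and 1240 of it. Gene by gene, 8 of the 11 were higher in Control replicate 2 than in replicate 3, such as Lum at 104, 103 and 71.3 FPKM, and 3 were lower, such as Gsn at 223, 236 and 270 FPKM. The 7 tendon markers summed to 713, 729 and 576 FPKM, and 6 of them were higher in replicate 2 than in replicate 3, with Scx the exception at 42.0, 36.2 and 40.7 FPKM. Their part in the spread of the collagens was not tested.

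In L7 replicate 3 collagens lay at both extremes, as did all genes. In it 16 of the 34 members were below all 5 other libraries, or 47.1%, where 63.2% of all genes were, and 8 members, or 23.5%, were above all 5, where 17.6% of all genes were. The 8 were Col4a1, Col4a2, Col15a1, Col11a2, Col2a1, Col6a6, Col20a1 and Col22a1, with both abundant type IV chains among them. Against the mean of L7 replicates 1 and 2, that library was at 2.60 for Col6a6, 2.08 for Col2a1, 2.06 for Col22a1 and 1.27 for Col4a2. It was at 0.282 for Col12a1, 0.290 for Col8a1, 0.384 for Col8a2 and 0.396 for Col11a1. The median of the tested collagens was 0.758, beside 0.740 over all genes. With median of ratios scaling the library was at 3.49 for Col6a6, 2.79 for Col2a1, 2.76 for Col22a1 and 1.70 for Col4a2. On that scaling it was at 0.377 for Col12a1, 0.388 for Col8a1, 0.515 for Col8a2 and 0.53 for Col11a1. In the same library the adult muscle fibre markers summed to 93700 FPKM against 31600 and 34200 in the other L7 libraries, and the 8 macrophage markers to 1040 FPKM against 2880 and 2150. The 11 fibroblast markers summed to 1810 FPKM against 1680 and 1690. The part of any of these cells in the collagen values was not tested.

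**Figure D4:**
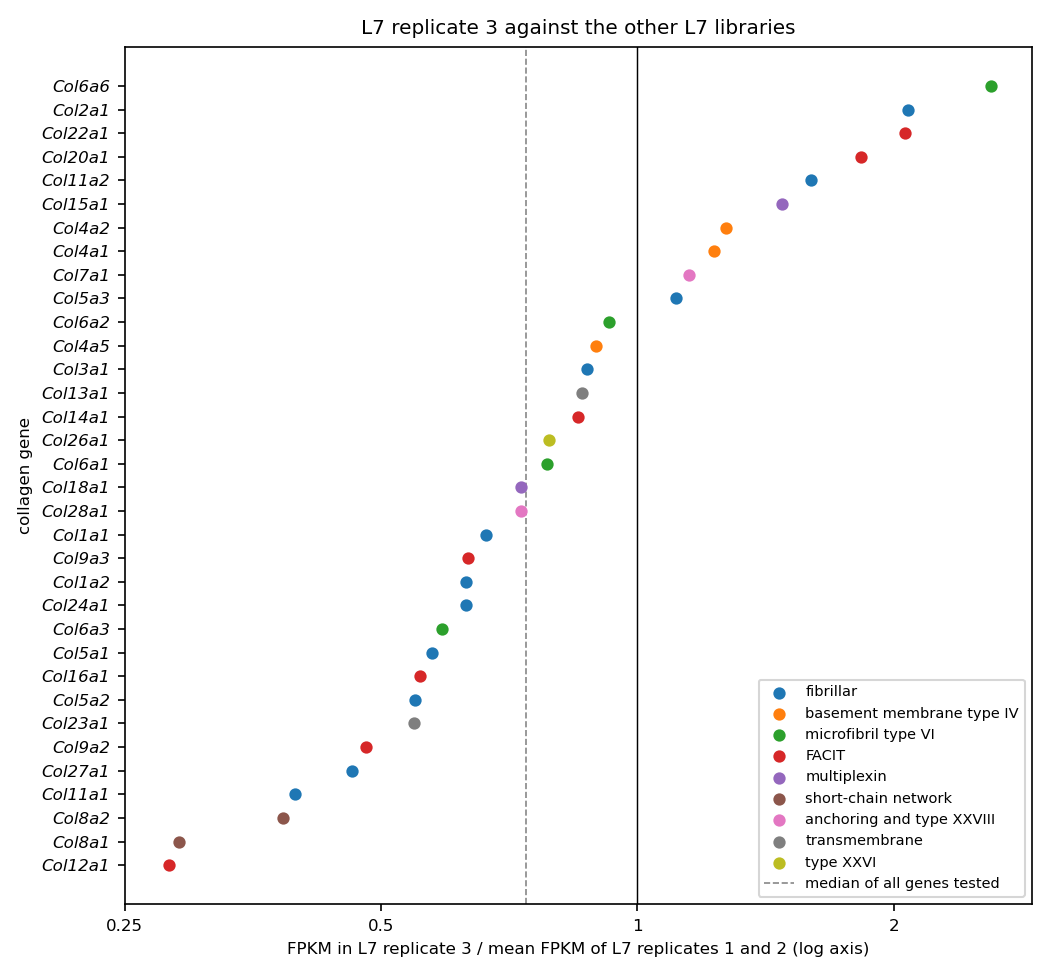
FPKM in L7 replicate 3 divided by the mean of L7 replicates 1 and 2, on a log axis, for the 34 collagen genes tested, sorted and coloured by class. The dashed line marks the median of all genes tested, 0.740, and the ratios run from 0.282 in Col12a1 to 2.60 in Col6a6.

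The genes that fold, export, trim, cross-link, bind and degrade collagen were read from 6 lists, with 55 tested members. Of these, 53 had negative log2 differences, 45 with median of ratios scaling and 39 without L7 replicate 3, where 70.8%, 50.3% and 58.1% of all genes were negative in the same order. At an unadjusted p under 0.05, 3 of the 55 were lower in L7 (4.25% of all genes) and 0 higher (1.65%), and in 4 the L7 values all lay under the Control values (13.7%). No adjusted p was under 0.05. The 3 were P4ha1, Plod3 and Itga1, and Sec13 was the other gene without overlap.

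Folding and modification genes held 2 of them. P4ha1, a catalytic subunit of the prolyl 4-hydroxylase that stabilises the helix, was at 52.6, 47.4 and 51.1 FPKM in Control and 39.4, 40.5 and 23.0 FPKM in L7. Each L7 library was below each Control library, with a log2 difference of -0.58 ± 0.23 (SE), an unadjusted p of 0.0352 and an adjusted p of 0.580 in limma. Without L7 replicate 3 it was -0.33, with an unadjusted p of 0.00897 and an adjusted p of 0.741. Plod3, a lysyl hydroxylase that also adds sugars to collagen, was at 96.5, 103 and 113 FPKM in Control and 81.7, 86.1 and 44.3 FPKM in L7. Again the groups did not overlap, with a log2 difference of -0.61 ± 0.26 (SE), an unadjusted p of 0.0496 and an adjusted p of 0.580. It was -0.31 without L7 replicate 3, with an unadjusted p of 0.0219 and an adjusted p of 0.743. In this list, 17 of 18 differences were negative and the median was -0.458, or -0.159 without L7 replicate 3. Serpinh1, the collagen chaperone HSP47, was at 336 FPKM in L7 replicate 3 and at 705 to 1020 FPKM in the other 5.

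For the later steps the medians also lay nearer 0 without L7 replicate 3, at -0.148 to -0.078 for export, propeptide cleavage and cross-linking. The median of all genes moved too, from -0.153 to -0.0319. On median of ratios scaling, leaving that library out moved export from -0.0953 to -0.0463 and cross-linking from -0.391 to -0.0742. Propeptide cleavage moved the other way, from -0.0307 to -0.116. Of 10 procollagen export genes 9 were negative, with a median of -0.271, and Sec13, a coat protein of export vesicles, was at 122, 118 and 104 FPKM in Control and 101, 100 and 71.4 FPKM in L7 (adjusted p = 0.580). The small GTPases that recruit the coat of these vesicles, Sar1a and Sar1b, had the highest means, 274 and 147 FPKM, and log2 differences of -0.29 and 0.50, the latter 0.060 without L7 replicate 3. Of the propeptide cleavage genes 7 of 8 were tested, all negative, with a median of -0.176, and Tll2 was at 0 reads in all libraries. Pcolce, the enhancer of C-propeptide cleavage, was the highest at 378 FPKM with a log2 difference of -0.030, followed by the protease Bmp1 at 84.8 FPKM with -0.32. All 5 cross-linking genes were negative, with a median of -0.564. The oxidases Loxl1 and Lox had log2 differences of -0.15 and -0.56, and of 0.018 and 0.0051 without L7 replicate 3.

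Of 9 collagen receptors 7 were tested, all negative, with a median of -0.355. Itga1, an integrin subunit that binds type IV collagen with Itgb1, was at 5.77, 3.94 and 4.35 FPKM in Control and 3.59, 3.17 and 1.59 FPKM in L7. Its groups did not overlap, and its log2 difference was -0.62 ± 0.26 (SE), with an unadjusted p of 0.0448 and an adjusted p of 0.580. It was -0.37 without L7 replicate 3, with an unadjusted p of 0.0712 and an adjusted p of 0.765. The 8 uptake and cleavage genes were all negative, with a median of -0.396. Mmp14, a membrane-bound collagenase, and Mmp2, the gelatinase it activates, had the highest means of that list, 641 and 545 FPKM, with log2 differences of -0.37 and -0.25. With median of ratios scaling and without L7 replicate 3, the medians of the 6 lists lay between -0.128 and -0.0463, beside -0.00395 over all genes.

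**Figure D5:**
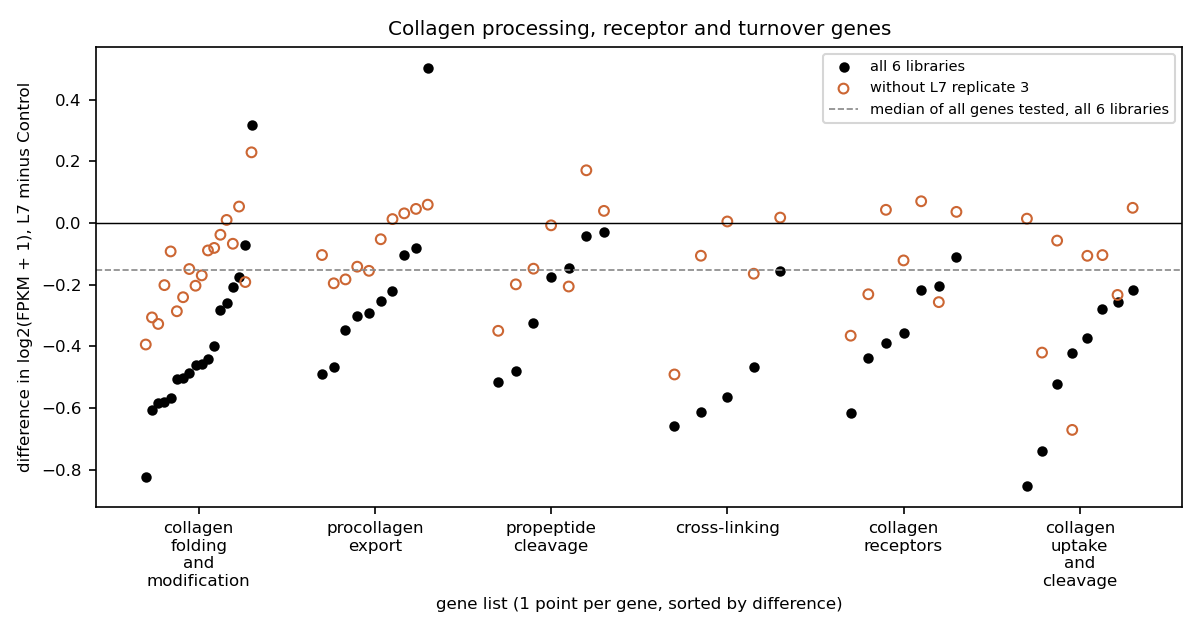
Difference in log2(FPKM + 1), L7 minus Control, for the 55 tested genes of 6 lists of collagen biosynthesis, binding and turnover, with 1 black point per gene from all 6 libraries and an open circle for the same gene without L7 replicate 3. The black points lie mostly below the dashed median of all genes (-0.153), and most circles lie nearer 0.

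The authors' deposited enrichment table held 11 Gene Ontology terms with collagen in their name, and 0 of them counted a member of the family among its changed genes. The deposited comparison marked 359 genes as significant, as many as had an unadjusted p under 0.05 in it. No collagen had such a p there, so the 0 adds nothing to that result. The first by p was collagen biosynthetic process in the authors' deposited table, with p = 0.000975 and a corrected p of 0.0543, from the 4 genes Arg1, Ccl2, Ccn2 and Il6, all lower in L7. Collagen trimer stood at p = 0.297 in the authors' deposited table, through Adipoq and Gldn, proteins with a collagen-like domain that the family rule does not take.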

How the data were processed

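RNA was sequenced from 6 tibialis anterior samples, 3 per group, and grouped by the labels. The authors deposited FPKM per gene. Their deposited comparison gives a mean signal per group (normalised reads), a log2 fold change and p-values, and a Gene Ontology table gives p-values and gene counts per term, per the file headers. The submitters' processing notes name mm10, DESeq 1.12.0, HISAT2 2.0.4, TopHat2 2.0.12 and Bowtie2 2.2.3 but give no roles. No source used here gives the counting program, its annotation or its strand setting. The deposited KEGG table was not used.

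Groups were compared on log2(FPKM + 1) by a two-sided limma-trend fit (limma 3.58.1 in R 4.3.3) that had no covariate and took in the 14788 genes averaging at least 1 FPKM. P-values were adjusted by Benjamini-Hochberg, and 0.05 was the threshold. This scale understates the change of low genes. The script was tested on simulated data in which no library stood apart as L7 replicate 3 did, so that test does not cover such a library. Reads were recovered from the steps of the FPKM values: 107283 of 107283 values under 500 reads came within 0.05 of a whole read. They gave depth and a limma voom fit, which called 0 genes adjusted and 832 unadjusted. Alternatives were another pseudocount, other filters, scalings, array weights, sex as a covariate (from Y-linked genes), a replicate block and each library left out. By Y-linked reads the libraries were not all of the same sex. With sex as a covariate 2.56% of all genes had an unadjusted p under 0.05 in limma, against 5.9% without. The collagen median was then -0.154, beside -0.118 over all genes. Symbols and coordinates came from GENCODE M21 and promoters from RefSeq.

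All 6 values are given by rule for the 2 members of highest mean in each class and for members called or without overlap; others were chosen after their values were seen, as were 5 of the 18 ratios. Of each pathway list, the rule names genes with p under 0.05 or, where there were none, the 2 of highest mean; Serpinh1 and Sec13 were added after their values were seen. Members, lists and tests were chosen with earlier results of these data known. Tables and figures used Python 3.11.15, pandas 2.3.3, numpy 2.4.6 and matplotlib 3.10.9.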

Additional observations from a re-analysis of the deposited data

How the results depend on the processing

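Genes past an adjusted p of 0.05 numbered 0, and 3 with array weights, 1 without L7 replicate 3 on median of ratios scaling, and 0 to 1 with 1 library left out. Of the 34 collagens tested, 0 had an unadjusted p under 0.05, beside 5.9% of all genes. With median of ratios scaling 1 did (Col26a1), beside 6.15% of all genes. Without L7 replicate 3 on that scaling 1 did (Col8a2), beside 6.52%. With 1 library left out the number was 0 to 3. The most, 3, came without L7 replicate 2 (Col12a1, Col9a2 and Col11a1), and 2 came without L7 replicate 1 (Col11a2 and Col2a1). With a replicate block 4 were under 0.05 (Col12a1, Col27a1, Col24a1 and Col11a2), beside 7.97% of all genes, and 0 genes passed after adjustment. Same-numbered libraries correlated at 0.322, -0.0652 and 0.0871 in their deviations from the group means. Such deviations sum to 0 within a group of 3, so these values cannot decide whether same-numbered libraries were paired. The smallest adjusted p of a collagen lay between 0.387 and 0.873 over the alternatives. The collagen median ran from -0.247 to 0.122 and the difference in share of all FPKM, -0.235 percentage points, from -0.564 to 0.117 with 1 library left out. That share was also taken over genes of at least 1 FPKM, chosen after seeing the data, at -0.237. Of the genes with p under 0.05, 27.9% were higher in L7, against 45.2% with median of ratios scaling, 46.5% with quantile normalization, 37.9% with array weights, 39.7% without L7 replicate 3 and 50.9% without it on median of ratios scaling. Why these values moved was not tested.

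Log2 differences that changed sign were, with median of ratios scaling, Col1a1 0.121, Col3a1 0.0452, Col1a2 0.0156, Col5a3 0.101, Col6a1 0.0561, Col6a2 0.176, Col6a3 0.013 and Col18a1 0.0047. With quantile normalization they were Col5a3 0.0406 and Col6a2 0.0659, with array weights Col7a1 -0.0522, Col1a1 0.116, Col1a2 0.000954 and Col8a2 0.235, and with sex as a covariate Col7a1 -0.105. Without L7 replicate 3 on median of ratios scaling they were Col1a1 0.168, Col1a2 0.0895, Col5a1 0.113, Col6a1 0.0234, Col6a2 0.0644, Col6a3 0.12, Col18a1 0.00984, Col8a2 0.299 and Col23a1 0.0795. With 1 library left out, the ranges that crossed 0 were -0.25 to 0.136 for Col1a1, -0.353 to 0.0574 for Col1a2, -0.422 to 0.0815 for Col5a1, -0.401 to 0.212 for Col5a3, -0.404 to 0.132 for Col6a1, -0.235 to 0.236 for Col6a2 and -0.502 to 0.124 for Col6a3. They were -0.119 to 0.282 for Col7a1, -0.0127 to 0.225 for Col28a1, -0.0343 to 0.131 for Col4a5, -0.0735 to 0.152 for Col14a1, -0.0218 to 0.367 for Col20a1, -0.46 to 0.268 for Col8a2 and -0.367 to 0.049 for Col23a1. No sign changed with a pseudocount of 0.1, without a filter, with a mean of at least 5 FPKM (26 members), with voom or with the replicate block. With 3 libraries a group, the median half-width of a collagen's 95% interval was 0.703, and the 10 members under 1 FPKM rest on few reads.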
